A study of Homo sapiens with 6 samples.

Results

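The protocadherin genes of H9 cells, an established line of human embryonic stem cells held in the primed state, were examined after transfection with oligonucleotides directed at LINE1 (L1), a family of transposable elements with many genomic copies. Members were the symbols of the count table that name a clustered protocadherin of the alpha, beta or gamma cluster or a numbered protocadherin outside the clusters. There were 68 members among 53715 genes. Of these, 55 lie in the clusters (16 alpha, 18 beta and 21 gamma) and 13 are non-clustered (5 of the delta-1 group, 5 of the delta-2 group and 3 others). A filter on low counts left 59 members among 19156 genes tested.

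The groups were ASO-L1, an antisense oligo against L1, sO-L1, an L1 oligo of the sense strand, and ASO-Ctr, an antisense oligo with no such target, with 2 libraries each. All 3 oligos were used at 25 nM and carried a fluorescein tag, by which cells were sorted for RNA 48 hours after transfection. Every group, controls included, also received ISRIB (0.7 uM), which blocks the integrated stress response, the caspase inhibitor emricasan (5 uM) and the ROCK inhibitor Y-27632 (10 uM), all withdrawn after 24 hours. The labels give mTeSR as the medium after transfection and the design text gives RSeT, and which was in use at collection was not worked out. The question of the series is whether L1 regulates totipotency genes of 8-cell embryos. No gene entry stands for L1 itself, so the labels could not be checked against the target. Cells of all 3 groups came from a single line, and the labels do not say whether the replicates were separate cultures. P-values therefore measure only spread between these libraries, largely pooled over genes, and that spread may be technical.

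Protocadherins are transmembrane adhesion proteins of the cadherin superfamily, best known from the nervous system. In the alpha and gamma clusters each gene has its own promoter and a large variable exon, which encodes the extracellular part and is spliced to constant exons that the whole cluster shares, whereas beta genes consist of a variable exon alone. Neurons choose among these promoters, with CTCF and cohesin joining a chosen promoter to a distal enhancer and DNA methylation marking silent ones, and the resulting mix of isoforms lets a neurite tell itself from its neighbours. The C-type genes at the downstream end of the alpha and gamma clusters (PCDHAC1, PCDHAC2, PCDHGC3, PCDHGC4 and PCDHGC5) are expressed more uniformly among neurons. The non-clustered delta-1 and delta-2 proteins act in cell sorting, axon growth and synapse formation.

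Most clustered protocadherin promoters, though not all, are known for a conserved element with the core CGCT upstream of the start site. The 100 bases before the start are shown for the clustered members that were called in a comparison or that led their cluster, from RefSeq promoters of GRCh38.p14, all on chromosome 5 and 5′ to 3′ on the gene's strand, with each CGCT in capitals.
PCDHA9, chr5:140848282-140848381, + strand: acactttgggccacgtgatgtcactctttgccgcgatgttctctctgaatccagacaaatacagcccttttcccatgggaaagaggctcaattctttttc
PCDHA11, chr5:140868857-140868956, + strand: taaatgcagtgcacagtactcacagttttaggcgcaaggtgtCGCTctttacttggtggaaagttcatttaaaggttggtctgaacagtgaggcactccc
PCDHA12, chr5:140875208-140875307, + strand: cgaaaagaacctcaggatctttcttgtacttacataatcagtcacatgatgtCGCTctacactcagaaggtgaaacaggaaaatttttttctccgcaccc
PCDHAC1, chr5:140926199-140926298, + strand: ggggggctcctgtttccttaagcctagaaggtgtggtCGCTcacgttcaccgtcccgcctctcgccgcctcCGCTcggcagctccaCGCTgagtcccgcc
PCDHAC2, chr5:140966376-140966475, + strand: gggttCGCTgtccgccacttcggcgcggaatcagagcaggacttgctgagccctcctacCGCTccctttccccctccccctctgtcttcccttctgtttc
PCDHB2, chr5:141094515-141094614, + strand: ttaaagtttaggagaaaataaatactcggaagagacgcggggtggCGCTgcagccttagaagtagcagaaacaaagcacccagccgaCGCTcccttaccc
PCDHB14, chr5:141223243-141223342, + strand: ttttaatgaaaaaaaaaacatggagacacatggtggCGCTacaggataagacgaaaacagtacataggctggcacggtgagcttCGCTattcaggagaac
PCDHGA10, chr5:141412887-141412986, + strand: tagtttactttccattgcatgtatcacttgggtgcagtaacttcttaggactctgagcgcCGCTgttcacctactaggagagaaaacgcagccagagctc
PCDHGC3, chr5:141475866-141475965, + strand: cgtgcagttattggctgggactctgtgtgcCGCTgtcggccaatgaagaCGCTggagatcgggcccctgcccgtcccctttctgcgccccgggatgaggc
PCDHGC4, chr5:141484930-141485029, + strand: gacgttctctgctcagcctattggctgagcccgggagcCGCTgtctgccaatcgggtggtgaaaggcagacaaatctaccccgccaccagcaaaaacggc
PCDHA9 had no CGCT in this window, PCDHAC1 had 3 copies, and the other 8 had 1 or 2. Of the 55 clustered members, 46 matched the RefSeq table by symbol, with 50 windows in all. CGCT stood on the gene's strand in 43 of these 50 windows (86%), against 9866 of the 35116 promoter windows of the same length from all genes (28.1%). Searched on both strands, with AGCG as the reverse complement, which can share 2 bases with it, it was in 90% of clustered windows and 44.8% of all windows. By cluster, it was found on the gene's strand in 12 of 13 alpha, 13 of 14 beta and 18 of 23 gamma windows, and in 4 of 12 windows of non-clustered members. The 23 gamma windows came from 19 genes. PCDHGB1, PCDHGB4, PCDHGB6 and PCDHGC4 each had a later annotated start without CGCT and a first window with it, and PCDHGB2 had none. The PCDHGC4 window shown is that of its first start. The median position of a CGCT in the clustered windows was -54, counted back from the base before the start. A CGCT between -80 and -35 was in 78% of clustered windows and 15% of all windows. These matches describe the letters of the windows and say nothing about which promoters were bound. With CGCT in 28.1% of all windows, a CGCT in capitals need not be part of the conserved element.

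The exon structure limits what a count says about each gene. In the GENCODE v29 annotation, used here for lengths only, a median of 53.4% of an alpha gene's exonic bases and 56.2% of a gamma gene's belonged to no other gene of the same strand. Most alpha genes shared 2866 bases, and the gamma genes 2181 bases or more, with the rest of their cluster. PCDHA14 lay wholly inside exons of PCDHA10 and had 0 counts in every library. Beta genes were 90.6% to 100% their own and delta genes 100%. PCDH20 kept 201 bases of its own, with 4577 shared with another gene. How the authors' counting treated reads in shared exons is not given in the sources used here, and neither is its strand setting, so alpha, gamma and PCDH20 counts may miss reads and opposite-strand overlap cannot be told apart. Reads that fit more than 1 of the similar beta genes carry the same doubt.

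The libraries held between 18897936 and 67192937 counts and detected 23837 to 29825 genes. In each group replicate 1 was the shallower library, so the replicate number cannot be told apart from depth. Members held 0.0577% and 0.0553% of the counts in the ASO-L1 libraries, 0.05% and 0.0511% in those of sO-L1, and 0.054% and 0.0546% in those of ASO-Ctr. Levels are given in CPM, counts scaled to a common library total, and as CPM per kb of the gene's own exons, averaged over the 6 libraries, where genes are compared. These lengths join all annotated transcripts, so a gene with long alternative exons is understated. A count of 3, taken as the detection floor, was worth 0.0437 to 0.159 CPM per library and covers counting error only. In such bulk RNA, fewer cells that express a gene and less RNA per cell cannot be told apart.

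Per length, PCDH1 stood far above all other members, at 49.3 CPM per kb. It is a delta-1 protocadherin also known from airway epithelium. PCDH18 followed at 9.26 CPM per kb, and PCDH11X, an X-linked delta-1 gene, was at 1.5. The remaining non-clustered members lay lower, with PCDH7 at 0.706 CPM per kb, PCDH17 at 0.564, PCDH19 at 0.427, PCDH10 at 0.287, PCDH8 at 0.214, PCDH12 at 0.121, PCDH9 at 0.0721 and PCDH15 at 0.0127. PCDH12 is known from endothelium and PCDH15 from the tip links of inner-ear hair cells. PCDH20, with too few bases of its own for a value per length, had 2.39 and 3.04 CPM in ASO-L1, 2.29 and 3.31 CPM in sO-L1, and 2.81 and 3.51 CPM in ASO-Ctr, and all groups overlapped.

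In the alpha cluster, PCDHA11 (3.9 CPM per kb of own exons), PCDHA12 (3.44), PCDHAC2 (2.01) and PCDHAC1 (1.01) stood above the rest. PCDHA4 was at 0.493 CPM per kb, PCDHA2 at 0.442, PCDHA3 at 0.258, PCDHA10 at 0.19, PCDHA1 at 0.156, PCDHA6 at 0.148, PCDHA8 at 0.142 and PCDHA13 at 0.113. PCDHA5, PCDHA7 and PCDHA9 were lowest, at 0.065, 0.0626 and 0.062 CPM per kb. These ranks depend on the lengths, since PCDHA9 has 7209 and PCDHA4 10574 exonic bases of its own. In mean CPM, PCDHA9 (0.447) was above PCDHA1 (0.427), PCDHA8 (0.372) and PCDHA13 (0.281), and PCDHA4 (5.21) was above PCDHAC1 (4.11). The level therefore did not follow position along the cluster, since PCDHA13 lies between PCDHA12 and PCDHAC1.

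In the beta cluster PCDHB2 reached 5.5 CPM per kb of own exons, with PCDHB16 (1.05), PCDHB10 (0.894) and PCDHB14 (0.813) next. PCDHB3 was at 0.316 CPM per kb, PCDHB15 at 0.297, PCDHB9 at 0.241, PCDHB4 at 0.201, PCDHB12 at 0.198, PCDHB13 at 0.139, PCDHB11 at 0.126, PCDHB5 at 0.112, PCDHB7 at 0.0667 and PCDHB1 at 0.0268. In the gamma cluster the first were PCDHGC3 (4.86), PCDHGB7 (3.36), PCDHGB6 (2.26), PCDHGC4 (2.06) and PCDHGA10 (1.41). The third C-type gamma gene, PCDHGC5, was at 0.108 CPM per kb, far below its neighbours. The other gamma genes that passed the filter lay between PCDHGB2 at 0.378 and PCDHGA5 at 0.0366 CPM per kb, with PCDHGA9 at 0.35, PCDHGB1 at 0.283, PCDHGA11 at 0.17, PCDHGB4 at 0.139, PCDHGA12 at 0.11, PCDHGA4 at 0.1, PCDHGB3 at 0.092, PCDHGA1 at 0.0685, PCDHGA2 at 0.0429 and PCDHGA6 at 0.0414. The 9 members that did not pass the filter were PCDHA14, PCDHB6, PCDHB8, PCDHB17, PCDHB18, PCDHGA3, PCDHGA7, PCDHGA8 and PCDH11Y. Outside PCDHA14 and PCDH11Y, these held 15 to 36 counts in all 6 libraries together.

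**Figure D1:**
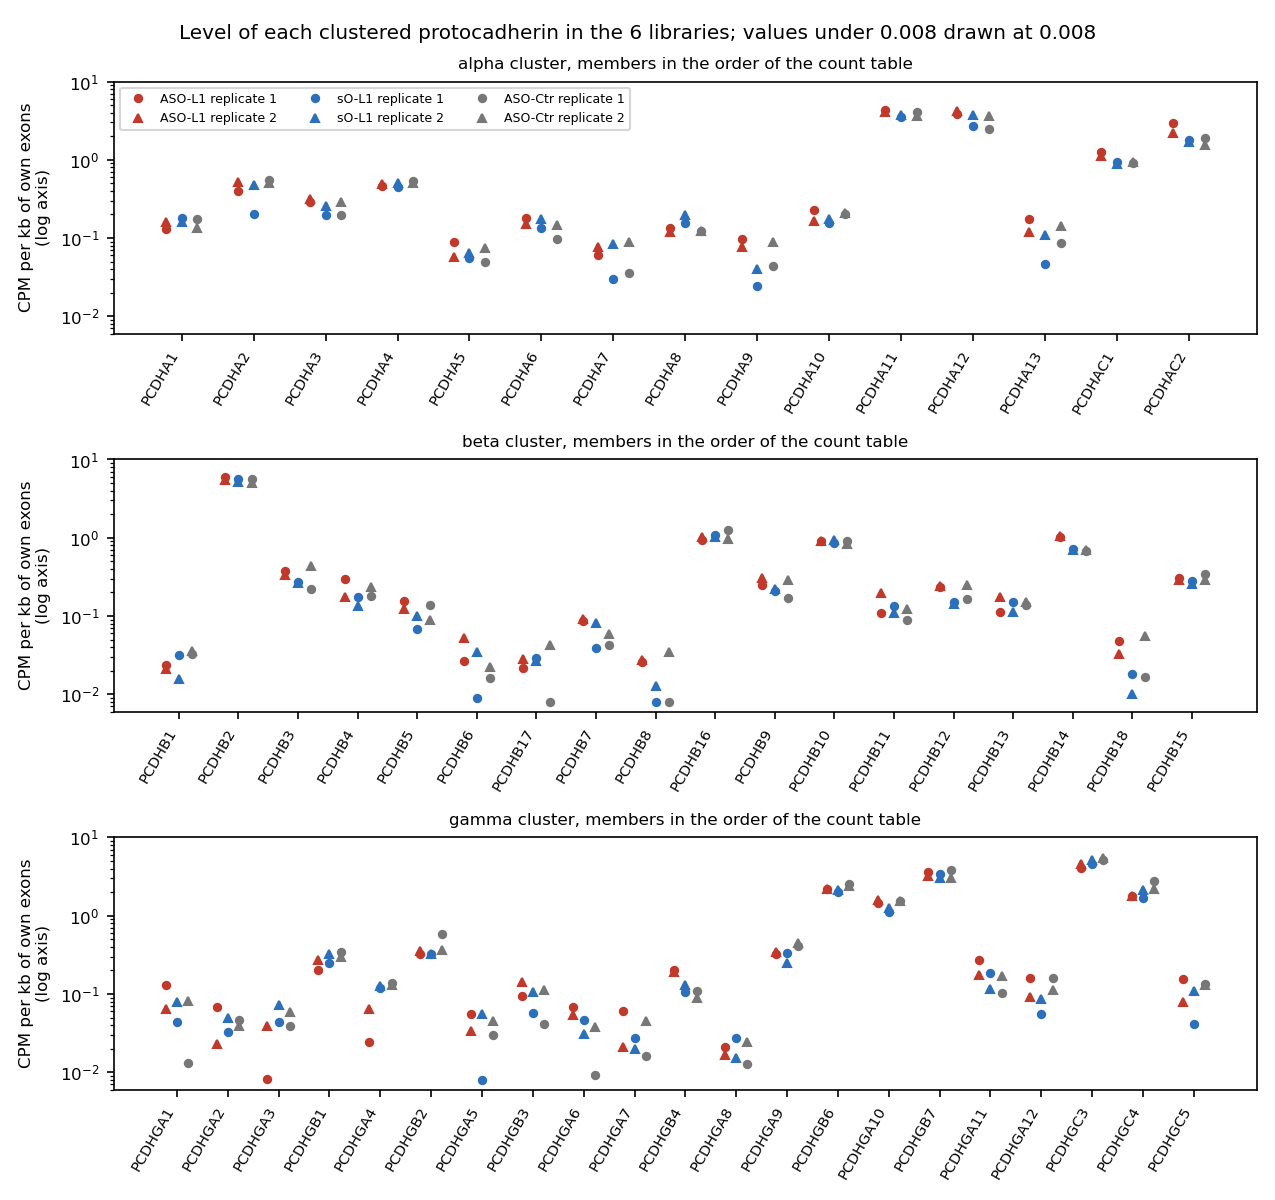
Level of each clustered member in CPM per kb of its own exons (log axis) in the order of the count table, with 1 point per library (circles for replicate 1, triangles for replicate 2; red ASO-L1, blue sO-L1, grey ASO-Ctr). PCDHA14 has no exon of its own and is not drawn; PCDHA11, PCDHB2 and PCDHGC3 are highest in their clusters, at means of 3.9, 5.5 and 4.86.

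A small set of members held most counts of each cluster, in every library. The 5 alpha members with the most counts, PCDHA11, PCDHA12, PCDHAC2, PCDHA4 and PCDHAC1, held 83.1% to 87.4% of alpha counts and were the same 5 in 6 of 6 libraries. PCDHGC3, PCDHGB6, PCDHGB7, PCDHGA10 and PCDHGC4 held 87.3% to 90% of gamma counts, also the same 5 in 6 libraries. In the beta cluster the corresponding share was 82% to 88.3% for PCDHB2, PCDHB16, PCDHB14, PCDHB10 and PCDHB15, which were the 5 first in 3 of 6 libraries, and PCDHB2 alone held 52.4% to 57.5%. The member with the most counts was the same in 6 of 6 libraries in each cluster. PCDHAC2 took 19.4% of alpha counts in ASO-L1 replicate 1, the highest of the 6, and its lowest share was 12.3%. The same leading members were therefore seen in all 3 groups, while shares of single members also differed between replicates of a group.

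**Figure D2:**
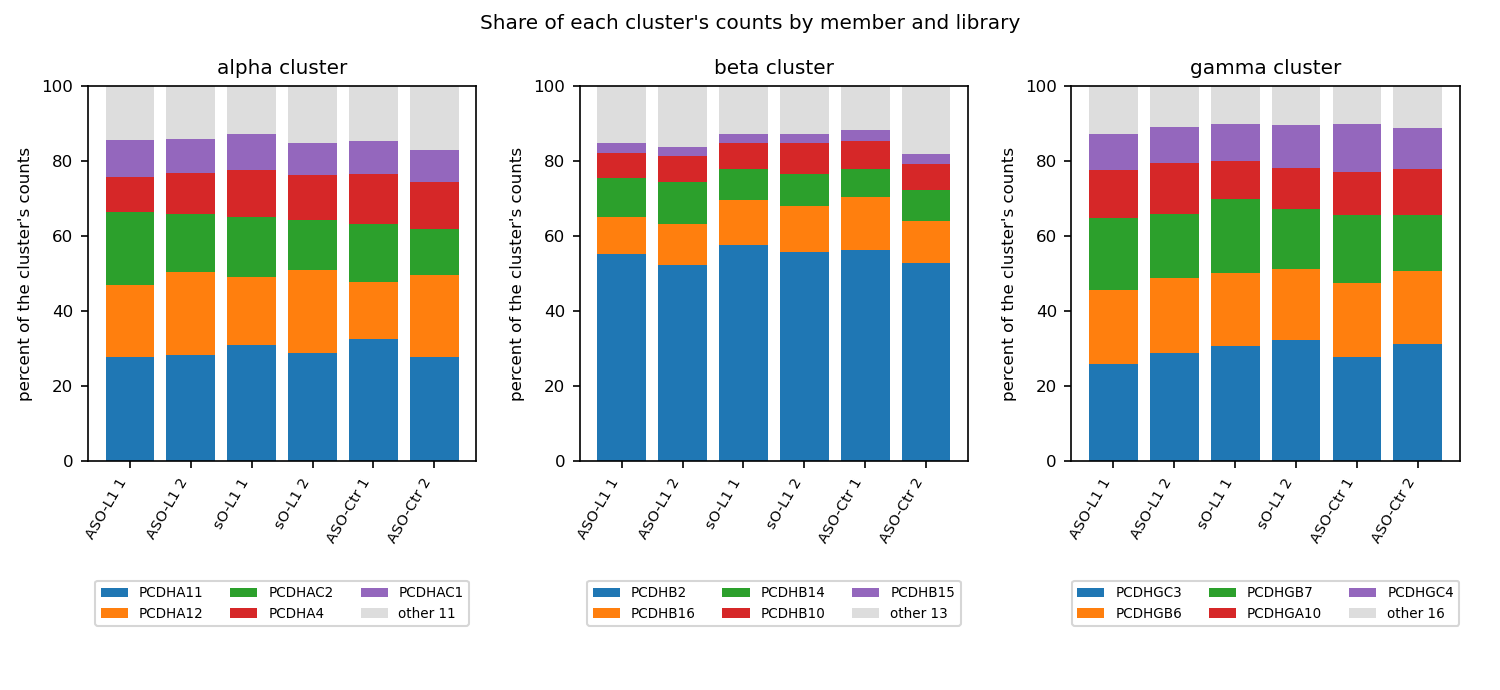
Share of each cluster's counts, in percent and not scaled by length, held by its 5 leading members and by the others together in each of the 6 libraries. PCDHB2 takes 52.4% to 57.5% of the beta counts, while the alpha and gamma clusters are spread over 5 members each.

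The 3 comparisons were fitted in edgeR's quasi-likelihood test over all genes, blocked on the replicate number, with Benjamini-Hochberg adjustment; a gene was called at an adjusted p under 0.05. Log2 fold changes are given ± SE, and the adjusted p without the block follows each p, because the labels do not say what the replicate number marks. The spread behind each SE and p was drawn largely from all genes tested. The fit had 2 residual degrees of freedom, against a median of 44.8 for the spread shared over genes. An SE is therefore not a gene's own spread between replicates. The direction was the same within both replicate numbers for all 24 called values. All but 1 of the 24 lost the call without the block.

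In ASO-L1 against sO-L1, the antisense against the sense L1 oligo, 11 members rose and 2 fell of 59 tested (22%), against 23.0% called among all genes (10.3% higher and 12.7% lower). The share called was thus near that of all genes. The direction leaned upward, with 46 positive and 13 negative log2 fold changes and a median of 0.25, against a median of 0 over all genes. Without the block, edgeR called 0 of the 59, with 12 at an unadjusted p under 0.05, against 1.84% of all genes (0.914% higher and 0.924% lower). DESeq2 with the block called 2 members higher and 0 lower, against 11.0% of all genes (4.94% higher and 6.09% lower). Of 47 tested clustered members 6 rose and 0 fell, with 10 at an unadjusted p under 0.05 in edgeR and 1 called higher by DESeq2. Of 12 non-clustered members 5 rose and 2 fell.

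In ASO-L1 against ASO-Ctr, the L1 antisense oligo against the non-targeting one, 5 members rose and 5 fell (16.9%), against 21.5% called among all genes (9.88% higher and 11.6% lower). The members had 36 positive and 23 negative log2 fold changes with a median of 0.06, against 0 over all genes. Without the block, 0 rose, 1 fell and 10 had an unadjusted p under 0.05, against 1.95% of all genes called (0.903% higher and 1.05% lower). DESeq2 called 2 higher and 1 lower, against 11.6% of all genes (5.47% higher and 6.10% lower). Of 47 tested clustered members 3 rose and 2 fell, with 8 at an unadjusted p under 0.05 in edgeR and 1 called higher by DESeq2. Of 12 non-clustered members 2 rose and 3 fell. In sO-L1 against ASO-Ctr, 1 member fell and 0 rose (1.69%), against 1.72% of all genes (0.658% higher and 1.06% lower), with 9 members at an unadjusted p under 0.05. Here 0 members were called without the block, against 0% of all genes, and 0 by DESeq2, against 0.339% of all genes (0.120% higher and 0.219% lower). The members' median there was -0.13, with 17 positive and 42 negative values. The comparisons share libraries pairwise, so their values are not independent and are set side by side only.

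**Figure D3:**
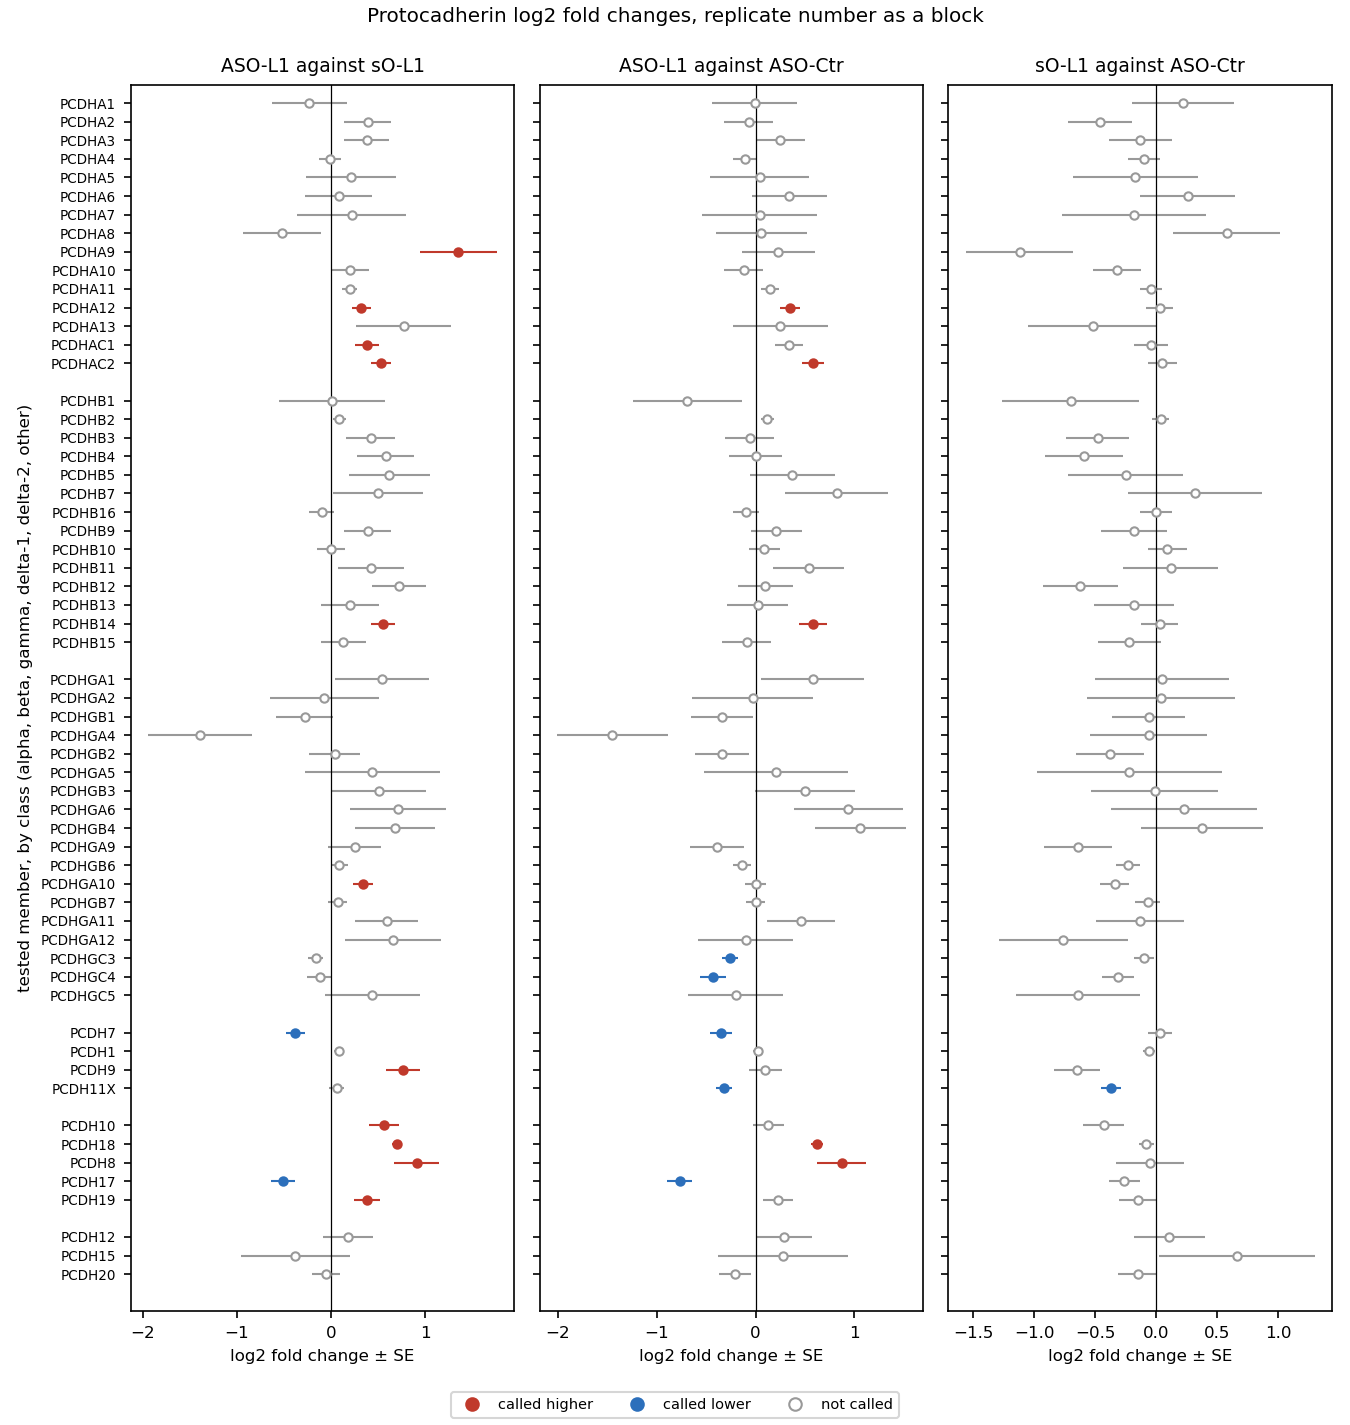
Log2 fold change ± SE of each of the 59 tested members in the 3 comparisons, by class; filled red is called higher, filled blue called lower and open grey not called. The 13, 10 and 1 called members stand out mainly where SEs are small, and the members with low counts have wide bars.

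Of the 5 delta-2 members, 4 rose and 1 fell in ASO-L1 against sO-L1 (23.0% of all genes were called). Without the block 0 were called there, with 4 at an unadjusted p under 0.05, and DESeq2 called 1 higher and 0 lower. In ASO-L1 against ASO-Ctr, 2 delta-2 members rose and 1 fell (21.5% of all genes were called). Without the block 0 rose and 1 fell there, and DESeq2 called 1 higher and 1 lower. PCDH18, which binds the reelin pathway adaptor Dab1 in the mouse, had 87.7 and 75.5 CPM in ASO-L1, 59.2 and 42.6 CPM in sO-L1, and 59.8 and 46.8 CPM in ASO-Ctr. Both ASO-L1 libraries lay above all 4 others. PCDH18 rose by 0.70 ± 0.05 against sO-L1 (1.62-fold, adjusted p = 3.93e-14, and 0.0695 without the block). Against ASO-Ctr it rose by 0.62 ± 0.06 (1.54-fold, adjusted p = 2.03e-12, and 0.0925 without). These 2 calls were also made by DESeq2, at adjusted p = 4.43e-17 and 1.78e-13. PCDH18 supplied 76.8% to 86.2% of delta-2 counts.

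PCDH17, which in the mouse acts in axon extension and synapse development, moved the other way. It had 3.42 and 3.44 CPM in ASO-L1, 5.34 and 4.56 CPM in sO-L1, and 5.47 and 5.99 CPM in ASO-Ctr. Both ASO-L1 libraries were below all others, and the sO-L1 libraries were below those of ASO-Ctr. PCDH17 fell by 0.77 ± 0.13 on the log2 scale against ASO-Ctr (log2 fold change -0.77, adjusted p = 1.47e-05), the only call that held without the block (adjusted p = 0.0439), and DESeq2 also made it (adjusted p = 0.00528). Against sO-L1 the log2 fold change was -0.51 ± 0.13 (adjusted p = 0.00302, and 0.124 without the block). That call was lost when sO-L1 replicate 1 was left out (adjusted p = 0.187).

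PCDH8, known in the rat as arcadlin, which promotes the uptake of N-cadherin at synapses, had 1.82 and 1.36 CPM in ASO-L1, 0.91 and 0.762 CPM in sO-L1, and 0.956 and 0.773 CPM in ASO-Ctr. Its ASO-L1 libraries lay above the other 4, which ranged from 0.762 to 0.956 CPM. The log2 fold change was 0.91 ± 0.24 against sO-L1 (adjusted p = 0.00325, and 0.11 without the block) and 0.87 ± 0.25 against ASO-Ctr (adjusted p = 0.00771, and 0.124 without). PCDH8 counts were 18 to 83 per library. The call against sO-L1 was lost without ASO-L1 replicate 1, sO-L1 replicate 1 or sO-L1 replicate 2, at adjusted p of 0.0605 to 0.0945. The call against ASO-Ctr was lost without either ASO-L1 library or ASO-Ctr replicate 2, at 0.0581 to 0.101.

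PCDH10, which links adhesion to actin through the WAVE complex, had 3.27 and 3.39 CPM in ASO-L1, 2.73 and 1.93 CPM in sO-L1, and 3.45 and 2.77 CPM in ASO-Ctr. The sO-L1 libraries were the lowest, though replicate 1 (2.73 CPM) was close to ASO-Ctr replicate 2 (2.77 CPM), and ASO-L1 overlapped ASO-Ctr. In sO-L1 against ASO-Ctr, PCDH10 was not called (-0.43 ± 0.17, adjusted p = 0.245). PCDH10 rose against sO-L1 by 0.56 ± 0.16 (adjusted p = 0.00779, and 0.238 without the block), while the log2 fold change was 0.13 ± 0.16 against ASO-Ctr (adjusted p = 0.622). PCDH19, the X-linked gene mutated in a form of epilepsy, averaged 4.91 ± 0.839 CPM in ASO-L1, 3.73 ± 0.207 CPM in sO-L1 and 3.88 ± 1.05 CPM in ASO-Ctr (SD, n = 2 each). It was called only narrowly against sO-L1, at 0.38 ± 0.14 (adjusted p = 0.0479, and 0.384 without the block), and without ASO-L1 replicate 1 its log2 fold change was 0.08 (adjusted p = 0.86). The PCDH19 call was also lost without sO-L1 replicate 1 (0.33) or sO-L1 replicate 2 (0.45). The PCDH10 call was lost without ASO-L1 replicate 2 (log2 fold change 0.31) or sO-L1 replicate 2 (0.34).

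Among the delta-1 protocadherins the members split. PCDH9, expressed in neurons, had 2.46 and 2.75 CPM in ASO-L1, 1.64 and 1.48 CPM in sO-L1, and 2.76 and 2.27 CPM in ASO-Ctr, so that only sO-L1 stood apart. PCDH9 rose in ASO-L1 against sO-L1 by 0.76 ± 0.18 (adjusted p = 0.00138, and 0.0935 without the block). The call was lost without ASO-L1 replicate 2 (0.54) or sO-L1 replicate 2 (0.68). Against ASO-Ctr its log2 fold change was 0.10 ± 0.17 in ASO-L1 (adjusted p = 0.742) and -0.65 ± 0.19 in sO-L1 (adjusted p = 0.0669).

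PCDH7, known in Xenopus as NF-protocadherin, had 7.7 and 6.63 CPM in ASO-L1, 10.8 and 8.02 CPM in sO-L1, and 10.9 and 7.8 CPM in ASO-Ctr. Both ASO-L1 libraries were below the other 4, by a small margin to the second replicates. The log2 fold change was -0.38 ± 0.10 against sO-L1 (adjusted p = 0.00435, and 0.362 without the block) and -0.35 ± 0.11 against ASO-Ctr (adjusted p = 0.012, and 0.423 without). Without ASO-L1 replicate 1 these were -0.27 (adjusted p = 0.219) and -0.24 (adjusted p = 0.263). The PCDH7 calls were also lost without sO-L1 replicate 1 (-0.34) or sO-L1 replicate 2 (-0.43) against sO-L1, and without ASO-Ctr replicate 1 (-0.29) against ASO-Ctr.

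PCDH11X had 14.4 and 18.1 CPM in ASO-L1, 12.7 and 18.5 CPM in sO-L1, and 16.8 and 23.7 CPM in ASO-Ctr. In each group replicate 2 was the higher, and all 3 groups overlapped. With the shift between replicate numbers removed, PCDH11X was called lower in ASO-L1 (-0.32 ± 0.08, adjusted p = 0.00206) and in sO-L1 (-0.37 ± 0.08, adjusted p = 0.00522), both against ASO-Ctr. Without the block the adjusted p was 0.458 and 1, so both calls rest on the pairing of replicate numbers. The ASO-L1 call was lost without ASO-L1 replicate 2 (-0.20) or ASO-Ctr replicate 2 (-0.27), and the sO-L1 call without sO-L1 replicate 1 (-0.32), sO-L1 replicate 2 (-0.46) or ASO-Ctr replicate 2 (-0.33). ASO-L1 against sO-L1 gave 0.06 ± 0.08 (adjusted p = 0.654).

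The most abundant member did not pass in any comparison. PCDH1 had 307 and 289 CPM in ASO-L1, 280 and 285 CPM in sO-L1, and 291 and 297 CPM in ASO-Ctr, and it held 89.8% to 92.5% of delta-1 counts. Its log2 fold change was 0.08 ± 0.05 against sO-L1 (adjusted p = 0.257) and 0.02 ± 0.05 against ASO-Ctr (adjusted p = 0.847). PCDH12, PCDH15 and PCDH20 were not called either. Their log2 fold changes in ASO-L1 against sO-L1 were 0.18 ± 0.27, -0.38 ± 0.58 and -0.05 ± 0.15.

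In the alpha cluster, 4 of 15 tested members rose in ASO-L1 against sO-L1 and 0 fell, with 5 at an unadjusted p under 0.05 and 1 called by DESeq2. The 26.7% called stood against 23.0% called over all genes (10.3% higher and 12.7% lower), and 0 were called without the block. In ASO-L1 against ASO-Ctr, 2 alpha members rose and 0 fell, 13.3% against 21.5% over all genes. There 3 had an unadjusted p under 0.05, 0 were called without the block, and DESeq2 called 1 higher. PCDHAC2, a C-type gene, had 10.1 and 7.65 CPM in ASO-L1, 6.25 and 5.8 CPM in sO-L1, and 6.48 and 5.33 CPM in ASO-Ctr. Both ASO-L1 libraries were above the other 4, and sO-L1 overlapped ASO-Ctr. PCDHAC2 rose by 0.53 ± 0.11 against sO-L1 (adjusted p = 0.000165, and 0.134 without the block) and by 0.58 ± 0.11 against ASO-Ctr (adjusted p = 9.62e-05, and 0.113 without). DESeq2 made both calls too, at adjusted p = 0.0172 and 0.00982. Without sO-L1 replicate 1, the edgeR value against sO-L1 was 0.42 (adjusted p = 0.0673).

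PCDHA12 had 9.96 and 10.8 CPM in ASO-L1, 6.99 and 9.63 CPM in sO-L1, and 6.48 and 9.49 CPM in ASO-Ctr. ASO-L1 lay above the other groups, with a narrow gap to their second replicates. The log2 fold change was 0.32 ± 0.10 against sO-L1 (adjusted p = 0.0154, and 0.47 without the block) and 0.35 ± 0.10 against ASO-Ctr (adjusted p = 0.0105, and 0.435 without). Without ASO-L1 replicate 1 it was 0.16 (adjusted p = 0.503) and 0.21 (adjusted p = 0.306). The PCDHA12 calls were also lost without sO-L1 replicate 1 (0.25), sO-L1 replicate 2 (0.42) or, against ASO-Ctr, ASO-Ctr replicate 1 (0.26).

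PCDHAC1, the other alpha C-type gene, averaged 4.86 ± 0.447 CPM in ASO-L1, 3.71 ± 0.11 CPM in sO-L1 and 3.76 ± 0.0619 CPM in ASO-Ctr (SD, n = 2 each). It rose against sO-L1 by 0.38 ± 0.13 (adjusted p = 0.0279, and 0.234 without the block), and against ASO-Ctr it was at 0.34 ± 0.14 (adjusted p = 0.0674). The call was lost when any of the 4 libraries compared was left out, at log2 fold changes of 0.31 to 0.47. PCDHA11, which held the most alpha counts, had 14.5 and 13.9 CPM in ASO-L1, 11.9 and 12.6 CPM in sO-L1, and 13.8 and 12.1 CPM in ASO-Ctr. Its ASO-L1 libraries were the highest, yet 0.20 ± 0.08 against sO-L1 did not pass (adjusted p = 0.0875).

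PCDHA9, the member shown above without a CGCT, had the largest called fold change. It averaged 0.627 ± 0.105 CPM in ASO-L1, 0.234 ± 0.0818 CPM in sO-L1 and 0.48 ± 0.228 CPM in ASO-Ctr (SD, n = 2 each). These levels rest on few counts, 32 and 32 in the ASO-L1 libraries, 6 and 18 in those of sO-L1, and 6 and 44 in those of ASO-Ctr. Its log2 fold change was 1.35 ± 0.41 against sO-L1 (2.55-fold, adjusted p = 0.0131, and 0.157 without the block), against 0.23 ± 0.37 relative to ASO-Ctr (adjusted p = 0.731). Without ASO-L1 replicate 1 the value against sO-L1 was 0.87 (adjusted p = 0.367), and the call was also lost without sO-L1 replicate 1 (1.14) or sO-L1 replicate 2 (1.74).

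In the beta cluster 1 of 14 tested members rose and 0 fell in each ASO-L1 comparison, with 2 members at an unadjusted p under 0.05 against sO-L1 and 1 against ASO-Ctr, and 0 called by DESeq2. The 7.14% called in each stood against 23.0% (against sO-L1) and 21.5% (against ASO-Ctr) over all genes. PCDHB14 had 4.76 and 4.92 CPM in ASO-L1, 3.38 and 3.27 CPM in sO-L1, and 3.13 and 3.29 CPM in ASO-Ctr. The ASO-L1 libraries stood clear of the other 4, which lay close together. PCDHB14 rose by 0.55 ± 0.13 against sO-L1 (adjusted p = 0.00185, and 0.102 without the block) and by 0.58 ± 0.14 against ASO-Ctr (adjusted p = 0.00163, and 0.0897 without). The first call was lost without sO-L1 replicate 2 (0.49, adjusted p = 0.115).

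PCDHB2, the leading beta gene, had 24.7 and 22.8 CPM in ASO-L1, 23.5 and 21.4 CPM in sO-L1, and 23.3 and 20.6 CPM in ASO-Ctr, and the groups overlapped. Its log2 fold change was 0.09 ± 0.07 against sO-L1 (adjusted p = 0.408) and 0.12 ± 0.07 against ASO-Ctr (adjusted p = 0.235). The beta values in ASO-L1 against sO-L1 were nearly all on the positive side, 13 of 14 with a median of 0.40, but outside PCDHB14 none passed. In ASO-L1 against ASO-Ctr 9 were positive and 5 negative, with a median of 0.10. In sO-L1 against ASO-Ctr 5 were positive and 9 negative, with a median of -0.18.

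In the gamma cluster 1 of 18 tested members rose and 0 fell in ASO-L1 against sO-L1, with 3 at an unadjusted p under 0.05, while 0 rose and 2 fell against ASO-Ctr, with 4 at an unadjusted p under 0.05. DESeq2 called 0 gamma members in both. By edgeR with the block, 5.56% of gamma members were called against sO-L1 and 11.1% against ASO-Ctr, with 23.0% and 21.5% over all genes. PCDHGC3 had 13.4 and 15 CPM in ASO-L1, 14.9 and 16.9 CPM in sO-L1, and 16.7 and 17.6 CPM in ASO-Ctr. ASO-L1 was below ASO-Ctr without overlap, and sO-L1 lay between and overlapped both. Its log2 fold change was -0.26 ± 0.08 against ASO-Ctr (adjusted p = 0.0133, and 0.24 without the block) and -0.16 ± 0.08 against sO-L1 (adjusted p = 0.136). The call was lost when any of the 4 ASO-L1 and ASO-Ctr libraries was left out, at -0.32 to -0.23.

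PCDHGC4, whose isoform is needed for the survival of neurons in the mouse, had 5 and 4.98 CPM in ASO-L1, 4.7 and 5.9 CPM in sO-L1, and 7.81 and 6.21 CPM in ASO-Ctr. Both ASO-Ctr libraries were above the other 4. PCDHGC4 fell by 0.43 ± 0.13 on the log2 scale in ASO-L1 against ASO-Ctr (log2 fold change -0.43, adjusted p = 0.0103, and 0.205 without the block). In sO-L1 against ASO-Ctr it was at -0.31 ± 0.13 (adjusted p = 0.25). Without ASO-Ctr replicate 1, the shallowest library, the ASO-L1 value was -0.24 (adjusted p = 0.313), and the call was also lost without ASO-L1 replicate 2 (-0.42, adjusted p = 0.0791).

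PCDHGA10 averaged 6.76 ± 0.313 CPM in ASO-L1, 5.3 ± 0.524 CPM in sO-L1 and 6.84 ± 0.0198 CPM in ASO-Ctr (SD, n = 2 each). Here the sO-L1 mean was the lowest, but sO-L1 against ASO-Ctr was not called (-0.34 ± 0.12, adjusted p = 0.148). PCDHGA10 rose in ASO-L1 against sO-L1 by 0.34 ± 0.11 (adjusted p = 0.0215, and 0.242 without the block). The call was lost when any of the 4 libraries compared was left out. PCDHGA4 had the lowest log2 fold changes of all members, -1.39 ± 0.55 against sO-L1 (adjusted p = 0.0603) and -1.45 ± 0.56 against ASO-Ctr (adjusted p = 0.0575), neither of which passed. It was singled out after its values were seen, and its counts were 3 and 10 in the ASO-L1 libraries, 11 and 21 in those of sO-L1, and 7 and 24 in those of ASO-Ctr.

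**Figure D4:**
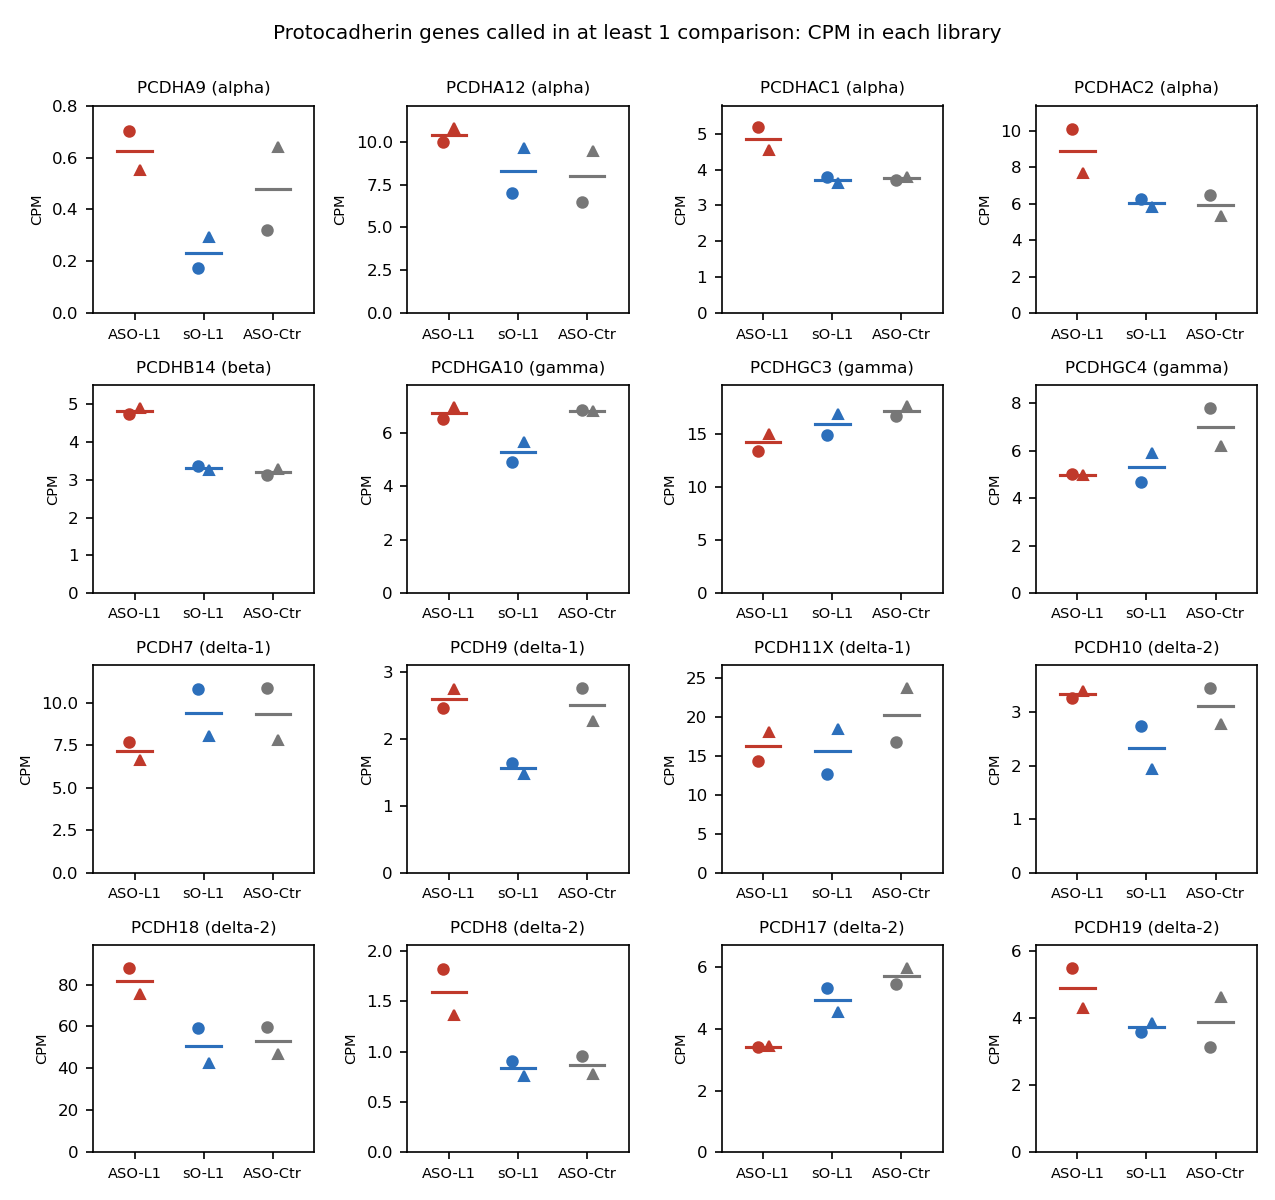
CPM of the 16 members called in at least 1 comparison, with a panel per gene, 1 point per library (circle for replicate 1, triangle for replicate 2) and the group mean as a bar; each axis starts at 0. PCDH18, PCDHAC2, PCDHB14 and PCDH8 are highest and PCDH17 lowest in ASO-L1. In PCDH9, PCDH10 and PCDHGA10 the sO-L1 libraries are the lowest, though sO-L1 against ASO-Ctr is not called for any of these genes.

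The called members thus fell into patterns that the 3 comparisons show side by side. PCDH18, PCDH8, PCDHAC2, PCDHA12 and PCDHB14 were called higher, and PCDH17 and PCDH7 lower, in ASO-L1 against each of the other groups. PCDH9, PCDH10, PCDHA9, PCDHGA10, PCDHAC1 and PCDH19 were called against sO-L1 but not against ASO-Ctr, and PCDHGC3, PCDHGC4 and PCDH11X against ASO-Ctr but not against sO-L1. A gene can be sorted apart by the cut alone. PCDHAC1 was at 0.38 against sO-L1 (adjusted p = 0.0279) and 0.34 against ASO-Ctr (adjusted p = 0.0674), and at -0.04 in sO-L1 against ASO-Ctr. Whether a gene's change differed between the comparisons was not tested beyond the fit of sO-L1 against ASO-Ctr, in which PCDH11X alone passed.

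Summed over a class, the alpha members reached 52 and 49 CPM in ASO-L1, 38.5 and 43.7 CPM in sO-L1, and 42.4 and 43.5 CPM in ASO-Ctr. The beta sum was 44.7 and 43.5 CPM in ASO-L1, 40.8 and 38.3 CPM in sO-L1, and 41.3 and 39.2 CPM in ASO-Ctr. In both, the ASO-L1 libraries were the highest and the other groups overlapped. The gamma sum was 51.7 and 51.7 CPM in ASO-L1, 48.4 and 52.1 CPM in sO-L1, and 60 and 56.4 CPM in ASO-Ctr, with ASO-Ctr the highest. The delta-2 sum was 102 and 88 CPM in ASO-L1, 71.8 and 53.7 CPM in sO-L1, and 72.8 and 60.9 CPM in ASO-Ctr, and it follows PCDH18. The delta-1 sum, which follows PCDH1, was 332 and 316 CPM in ASO-L1, 306 and 313 CPM in sO-L1, and 322 and 331 CPM in ASO-Ctr. Sums over chosen members were given no test.

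**Figure D5:**
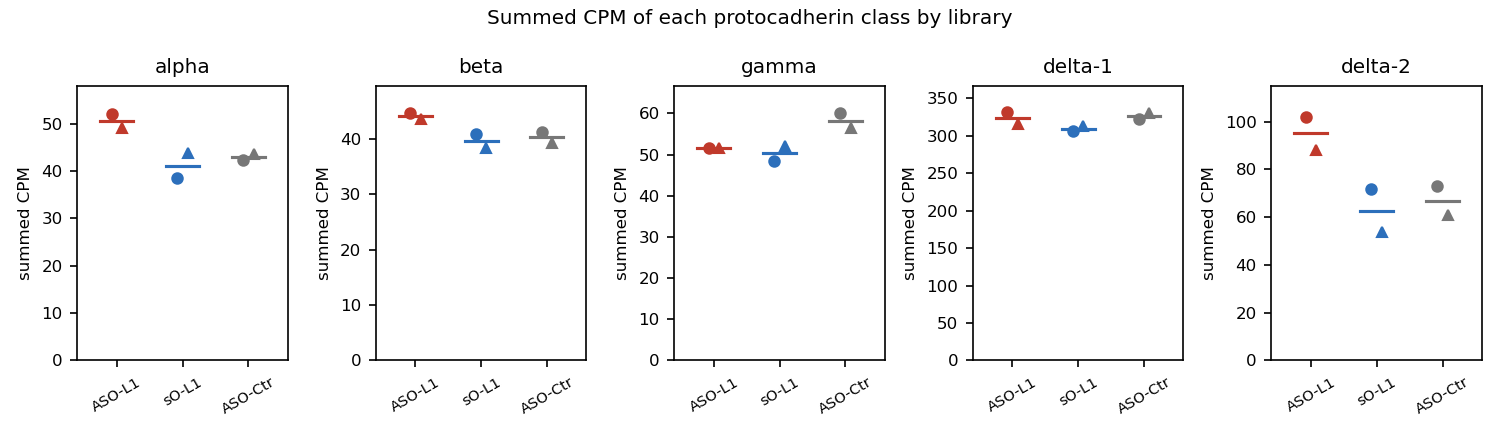
Summed CPM of the alpha, beta, gamma, delta-1 and delta-2 members in each library (circle for replicate 1, triangle for replicate 2), with the group mean as a bar and axes from 0. ASO-L1 is highest for alpha (mean 50.5), beta (44.1) and delta-2 (94.9), and ASO-Ctr is highest for gamma (58.2).

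Genes that act with protocadherins were read from 3 lists. Of 21 tested genes of promoter choice and looping (CTCF, cohesin, DNA methylation and repressive chromatin), 4 rose and 1 fell in ASO-L1 against sO-L1, 2 rose and 1 fell against ASO-Ctr, and 0 were called in sO-L1 against ASO-Ctr (4 at an unadjusted p under 0.05 in edgeR, 0 by DESeq2). Over all genes 23.0%, 21.5% and 1.72% were called in these comparisons. Without the block 0 genes of the list were called in each, and DESeq2 called 2 higher and 1 lower in both ASO-L1 comparisons. The list's median log2 fold change was 0.02 against sO-L1, with 0 over all genes. DNMT3B, a de novo DNA methyltransferase needed for methylation of clustered promoters in the mouse, averaged 1410 ± 83.3 CPM in ASO-L1 and 1640 ± 80 CPM in sO-L1 (SD, n = 2 each), a log2 fold change of -0.22 ± 0.05 (adjusted p = 0.000317, and 0.193 without the block). SMC3, a cohesin subunit, averaged 387 ± 13.9 CPM in ASO-L1 and 333 ± 4.66 CPM in sO-L1, at 0.22 ± 0.05 (adjusted p = 0.000579, and 0.217 without). STAG2, another cohesin subunit, was at 0.18 ± 0.05 (adjusted p = 0.003, and 0.29 without). Against ASO-Ctr, DNMT3B was at -0.23 ± 0.05 (adjusted p = 0.000204, and 0.176 without the block). SMC3 was at 0.37 ± 0.05 there (adjusted p = 6.57e-08, and 0.0551 without) and STAG2 at 0.22 ± 0.05 (adjusted p = 0.000312, and 0.194 without).

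Of 34 tested adhesion partners and signalling genes, 4 rose and 5 fell in ASO-L1 against sO-L1, 0 rose and 9 fell against ASO-Ctr, and 0 rose and 5 fell in sO-L1 against ASO-Ctr. Over all genes 12.7%, 11.6% and 1.06% were called lower, and 10.3%, 9.88% and 0.658% higher. The calls lower in the list were 1, 5 and 1 by DESeq2, and 0, 1 and 0 without the block. DESeq2 called 3 genes of the list higher in ASO-L1 against sO-L1 and 0 in both comparisons with ASO-Ctr, where 5 (ASO-L1) and 1 (sO-L1) had a positive log2 fold change at an unadjusted p under 0.05, and without the block 0 were called higher. FAT3, an atypical cadherin, averaged 44.9 ± 7.98 CPM in ASO-L1, 67.4 ± 16.7 CPM in sO-L1 and 85.2 ± 13.9 CPM in ASO-Ctr (SD, n = 2 each). It fell in ASO-L1 against sO-L1 (log2 fold change -0.58 ± 0.05, adjusted p = 6.16e-12, and 0.14 without the block) and against ASO-Ctr (-0.92 ± 0.05, adjusted p = 2.27e-18, and 0.0379 without). FAT4, which pairs with Dachsous cadherins in planar polarity, was at 0.84 ± 0.12 against sO-L1 (adjusted p = 2.15e-07, and 0.2 without). Against ASO-Ctr, FAT4 was at 0.26 ± 0.11 in ASO-L1 (adjusted p = 0.095) and was called lower in sO-L1, at -0.57 ± 0.12 (adjusted p = 0.00701, and 1 without the block), so that sO-L1 had the lowest mean, at 7.96 ± 2.29 CPM in ASO-L1, 4.56 ± 1.86 CPM in sO-L1 and 6.49 ± 1.56 CPM in ASO-Ctr (SD, n = 2 each). CDH24, a classical cadherin of type II, was at 0.27 ± 0.07 in ASO-L1 against sO-L1 (adjusted p = 0.00172, and 0.23 without). Against ASO-Ctr it was at 0.18 ± 0.07 and was not called (adjusted p = 0.0546, and 0.441 without).

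The third list held genes that flank the clusters on chromosome 5. Of 14 tested, 2 rose and 1 fell in ASO-L1 against sO-L1, 3 rose and 2 fell against ASO-Ctr, and 0 were called in sO-L1 against ASO-Ctr (2 at an unadjusted p under 0.05 in edgeR, 0 by DESeq2), with 23.0%, 21.5% and 1.72% called over all genes. Without the block 0 were called in each, and DESeq2 called 0 higher and 1 lower against sO-L1 and 2 higher and 1 lower against ASO-Ctr. GNPDA1, a glucosamine-6-phosphate deaminase, was at -0.28 ± 0.05 against sO-L1 (adjusted p = 3.85e-05, and 0.135 without the block). WDR55, which acts in ribosomal RNA production in medaka fish, was at 0.21 ± 0.06 (adjusted p = 0.014, and 0.258 without). TAF7, a subunit of the general transcription factor TFIID whose gene lies between the beta and gamma clusters, was at 0.14 ± 0.05 (adjusted p = 0.0296, and 0.555 without). Against ASO-Ctr, WDR55 was at 0.17 ± 0.07 and was not called (adjusted p = 0.0614, and 0.345 without). GNPDA1 was at -0.28 ± 0.05 there (adjusted p = 6.17e-05, and 0.13 without) and TAF7 at 0.3 ± 0.05 (adjusted p = 3.37e-06, and 0.167 without).

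The cells carried markers of primed pluripotency, with POU5F1 at 1010 to 1130 CPM in all 6 libraries and a summed level of 12 markers of 10600 to 10700 CPM in ASO-L1, 10700 to 11100 CPM in sO-L1 and 10400 to 11000 CPM in ASO-Ctr. Of the 12, 3 rose and 4 fell in ASO-L1 against sO-L1, where 10.3% of all genes were called higher and 12.7% lower. Calls of markers were taken from the blocked edgeR fit only. The 8 fibroblast markers summed to 692 to 806 CPM in ASO-L1, 540 to 593 CPM in sO-L1 and 551 to 623 CPM in ASO-Ctr, with 2 of 6 tested called higher in ASO-L1 against sO-L1. VIM had 403 and 290 CPM in ASO-L1, 207 and 145 CPM in sO-L1, and 225 and 147 CPM in ASO-Ctr. COL1A1 had 77.1 and 72.5 CPM in ASO-L1, 45.6 and 51.1 CPM in sO-L1, and 42.9 and 54.1 CPM in ASO-Ctr. The other abundant fibroblast markers were not higher in ASO-L1, with THY1 at 234 and 226 CPM in ASO-L1, 246 and 232 CPM in sO-L1, and 257 and 246 CPM in ASO-Ctr, and COL1A2 at 85.5 and 97.8 CPM in ASO-L1, 87.7 and 108 CPM in sO-L1, and 92.2 and 99.7 CPM in ASO-Ctr. The fibroblast markers DCN and LUM were at or under 0.0881 CPM, at or below the floor of 3 counts, in all libraries.

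The 9 neural markers summed to 628 to 633 CPM in ASO-L1, 598 to 614 CPM in sO-L1 and 578 to 583 CPM in ASO-Ctr. Of 8 tested, 1 was called higher and 0 lower in ASO-L1 against sO-L1, with 10.3% and 12.7% over all genes. NEUROD1 was at most 0.0531 CPM. The 8 mesendoderm markers summed to 4.22 to 5.29 CPM in ASO-L1, 5.76 to 6.52 CPM in sO-L1 and 5.32 to 6.8 CPM in ASO-Ctr, with SOX17 at most 0.0729 CPM. Of 5 tested, 1 was called higher and 1 lower in ASO-L1 against sO-L1. FOXA2 had 1.95 and 1.61 CPM in ASO-L1, 3.82 and 3.84 CPM in sO-L1, and 3.66 and 3.16 CPM in ASO-Ctr. EOMES went the other way, with 0.833 and 0.639 CPM in ASO-L1, 0.264 and 0.389 CPM in sO-L1, and 0 and 0.364 CPM in ASO-Ctr. The 7 trophectoderm or amnion markers summed to 10.2 to 10.7 CPM in ASO-L1, 10.7 to 11.2 CPM in sO-L1 and 9.98 to 10.8 CPM in ASO-Ctr, almost all of it KRT7, with HAND1 at 0 counts in every library. The part of any of these in the protocadherin values was not tested.

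In the authors' deposited table of ASO-L1 against sO-L1, which lists 45 members, 8 members were higher and 2 lower at an adjusted p under 0.05. All 10 were among the 13 called here. The authors' deposited table gave PCDH18 a log2 fold change of 0.71 (adjusted p = 3.4e-11), PCDHAC2 0.53 (adjusted p = 0.000817) and PCDHA9 1.29 (adjusted p = 0.0264). PCDHAC1 was at an adjusted p of 0.052 in the authors' deposited table. Whether that table was made with a correction for batch is not given in the sources used here, and it comes from the same libraries.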

How the data were processed

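Poly(A) RNA of 6 libraries was sequenced with a directional kit, per the labels' protocols. The submitters' processing notes name Trim Galore 0.4.0, TopHat2 2.0.13, the build hg19 and featureCounts (Subread 1.5.0). The values tested here are the authors' raw counts by gene symbol, from which duplicates had been taken out, per the labels. A second deposited table gives normalized, batch-corrected levels on a log2 scale, per the labels. The authors' deposited comparison table gives a log2 fold change and p-value per gene, and a test score that was not used; the sign was settled against that log2 table (correlation 0.996 over 16576 genes). Columns were matched to samples by the group and replicate in their names.

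The 92 spike-in entries were left out. Of 53715 genes, 19156 passed filterByExpr (minimum count 10, minimum total 15). Library sizes were corrected by TMM (0.983 to 1.02), and edgeR 4.0.16 (R 4.3.3; robust quasi-likelihood) was run with group and replicate number, 2 residual degrees of freedom, Benjamini-Hochberg adjustment over all genes and calls at 0.05. Each SE is |log2 fold change| divided by √F. The replicate number was in the design because the labels name a batch-corrected table. In the authors' batch-corrected log2 levels, the means of replicates 1 and 2 over the groups lay within 0.02 for 82.6% of genes. In log2 CPM without that correction, this held for 10% of the genes tested. The authors' correction thus took out most of the difference between replicate numbers. The labels do not say what the number marks, so the pairing is not established.

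The members and lists were chosen with earlier results of these data known. Values in every library are given for the 12 called members with the smallest p and for the member with the highest mean CPM in each class; PCDHA9, PCDHAC1, PCDHGA10 and PCDH19 fell outside that rule and are given as means, and PCDHA9 counts were added after its values were seen. List genes named were the 3 with the smallest p in ASO-L1 against sO-L1. The alternatives were DESeq2 size factors, no low-count filter, DESeq2 1.42.0, keeping genes over 0.5 CPM in at least 2 libraries, no replicate block, thinning to the shallowest library, and each library left out. The pipeline was also run on simulated counts, drawn with the same dispersion for every gene and a shift by replicate number. That setting is what the blocked fit assumes, so the run cannot show whether the block is right or how single genes vary. Exon lengths came from GENCODE v29 and promoters from RefSeq, both on GRCh38, and neither was used for positions in the deposited files.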

Additional observations from a re-analysis of the deposited data

How the results depend on the processing

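None of the 24 called log2 fold changes changed sign under any alternative run. With DESeq2 size factors, no filter and the CPM filter all 24 calls were kept; DESeq2 with the block kept 5, thinning to the shallowest library 15 and the fit without the replicate block 1. In ASO-L1 against sO-L1, 11 members were called higher with the block, against 2 by DESeq2, 5 after thinning and 0 without the replicate block, and 2 to 11 with a library left out (5 without ASO-L1 replicate 1, 7 without ASO-L1 replicate 2, 4 without sO-L1 replicate 1 and 2 without sO-L1 replicate 2). Calls lower were 2, against 0 by DESeq2, 1 after thinning and 0 without the block, and 0 to 2 with a library left out (0 without sO-L1 replicate 1, 1 without ASO-L1 replicate 1 or sO-L1 replicate 2). In ASO-L1 against ASO-Ctr, calls higher were 5, against 2 by DESeq2, 3 after thinning and 0 without the block, and 3 to 5 with a library left out (3 without ASO-L1 replicate 1). Calls lower were 5, against 1 by DESeq2 and 1 without the block, and 2 to 5 with a library left out (3 without ASO-L1 replicate 1 or ASO-Ctr replicate 2, 2 without ASO-L1 replicate 2 or ASO-Ctr replicate 1). In sO-L1 against ASO-Ctr the 1 call lower became 0 by DESeq2 and 0 without the block, and 0 to 2 with a library left out (0 without either sO-L1 library, 2 without either ASO-L1 library). Where a group was down to 1 library, its spread was taken from the others. The cause of these losses was not tested beyond the smaller number of libraries or counts.

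Differences between replicates 1 and 2 had correlations of 0.354 to 0.461 between groups over all tested genes, and with 2 replicate numbers the pairing stays a hint from the data. Replicate 1 was also the shallower library in each group. It held 46223290 counts against 57899009 in ASO-L1, 34665403 against 60999413 in sO-L1, and 18897936 against 67192937 in ASO-Ctr. A shared difference in depth therefore cannot be told apart from a pairing of the replicates.

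Of 153 uncalled values 86 changed sign under at least 1 alternative, all without a call. In ASO-L1 against ASO-Ctr, PCDHGA10 was at -0.01 by DESeq2 and -0.01 without the replicate block, and PCDH9 at -0.08 after thinning. After thinning, sO-L1 against ASO-Ctr was at -0.03 for PCDH7, 0.09 for PCDHAC1 and 0.08 for PCDH19. With a library left out, ASO-L1 against ASO-Ctr ranged from -0.14 to 0.32 for PCDH10, -0.03 to 0.71 for PCDH19, -0.13 to 0.25 for PCDH9, -0.19 to 1.03 for PCDHA9 and -0.09 to 0.06 for PCDHGA10. ASO-L1 against sO-L1 ranged from -0.02 to 0.17 for PCDH11X and -0.32 to 0.17 for PCDHGC4. For sO-L1 against ASO-Ctr the ranges were -0.17 to 0.03 for PCDH18, -0.36 to 0.35 for PCDH19, -0.06 to 0.09 for PCDH7, -0.12 to 0 for PCDH8, -0.08 to 0.23 for PCDHA12, -0.09 to 0.07 for PCDHAC1, -0.1 to 0.15 for PCDHAC2 and 0 to 0.1 for PCDHB14. PCDH19 in ASO-L1 against ASO-Ctr and PCDH9 and PCDHGC4 in sO-L1 against ASO-Ctr were called when single libraries were left out.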
